A study of Mus musculus with 11 samples.

Results

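Matricellular proteins are secreted into the extracellular matrix and act mainly as signals to cells rather than as its load-bearing fibres. The genes described here are 9 of 10 that were chosen by symbol: Tnc, Thbs1, Thbs2, Postn, Sparc, Ccn1, Ccn2, Fn1 and Vcan. Each had 1 probe set with a single gene symbol, among 19938 genes with such a probe set. Spp1, the 10th, is not analysed here. Gene expression was measured in 11 mouse stomach samples, 1 Affymetrix array each. The pChePS_GC group held 4 gastric cancer tissues from mice with Pdx-1-Cre, a floxed and a wild-type allele of Cdh1 (Cdh1F/+), and floxed Smad4 and Trp53 (Smad4F/F and Trp53F/F). The pCP_GC group held 3 gastric cancer tissues from mice with Pdx-1-Cre, Cdh1F/F and Trp53F/F, with no floxed Smad4 named. The NGE group held normal epithelium of the stomach from 4 Pdx1-1-Cre-negative samples. Histology was labelled diffuse-type for both cancers, and no group was treated. The labels used here give neither ages nor sexes, and whether each sample is a mouse of its own is not said, so a p-value here reflects spread among samples that may be partly technical.

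In the stomach the Pdx1 promoter is known to be active mainly in the antrum, so Cre acts in part of the organ's epithelium. Tumour stroma, in which fibroblasts, vessels and macrophages lie in collagen, is the usual place of matricellular proteins. They bind integrins, collagen, hyaluronan or growth factors and change adhesion, while adult tissue at rest makes little of several of them. TGF-beta, which signals through SMAD proteins, and YAP, which binds DNA through TEAD proteins, are known inducers of several of these genes.

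Signals are log2 values, with array medians of 7.63 to 7.81 and array maxima of 14.37 to 14.56. Precision is limited by how many arrays each group has. The floxed genes Cdh1 and Smad4 averaged 9.60 and 10.49 in pChePS_GC, 11.20 and 11.44 in pCP_GC and 12.98 and 11.09 in NGE, and Trp53 is not analysed here. Where these probe sets lie relative to the floxed exons is not known here. Xist, expressed from the silenced X chromosome, had values of 5.72 to 6.02 in pChePS_GC, of 5.57 to 5.81 in pCP_GC and of 11.54 to 12.66 in NGE, and the Y-linked Eif2s3y had values of 9.21 to 11.09 in pChePS_GC, of 8.08 to 10.01 in pCP_GC and of 4.94 to 5.19 in NGE. Every tumour array thus lay opposite to every NGE array on both genes, and sex and tumour cannot be told apart in any comparison with NGE. As a gauge of dim signal, 1194 genes of odour and pheromone receptors were used, and their 95th percentile was 6.99 in pChePS_GC, 6.86 in pCP_GC and 7.24 in NGE.

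The sequences upstream of these genes were examined because the groups differ in Smad4 and the genes include known SMAD and TEAD targets. RefSeq (GRCm38.p6) gave windows from 250 bases before to 50 bases after the start for 6 of the 9 genes, 8 windows in all. Shown are Ccn1, the gene whose window held a TEAD match, and Thbs2, the gene with the largest difference between the tumour groups. Ccn1 lies on the minus strand at chr3:145649936-145650235 and Thbs2 on the minus strand at chr17:14694213-14694512. Both are written 5′ to 3′ on the gene's strand, and capitals mark matches, on either strand, to the SMAD motif CAGAC, to the TEAD motif GGAATG or to the TATA box letters TATAAA.
Ccn1: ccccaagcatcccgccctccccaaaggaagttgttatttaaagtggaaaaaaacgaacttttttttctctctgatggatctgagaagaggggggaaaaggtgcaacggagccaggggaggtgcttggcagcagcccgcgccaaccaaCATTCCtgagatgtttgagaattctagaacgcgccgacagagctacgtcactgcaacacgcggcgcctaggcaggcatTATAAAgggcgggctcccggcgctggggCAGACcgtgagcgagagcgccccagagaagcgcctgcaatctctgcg
Thbs2: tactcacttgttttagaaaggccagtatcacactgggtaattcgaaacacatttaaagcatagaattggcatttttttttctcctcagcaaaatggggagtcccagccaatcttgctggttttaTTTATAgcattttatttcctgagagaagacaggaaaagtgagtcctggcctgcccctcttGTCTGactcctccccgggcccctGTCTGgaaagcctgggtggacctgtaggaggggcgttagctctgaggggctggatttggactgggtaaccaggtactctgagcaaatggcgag
In Ccn1 the TEAD match lay at -103 to -98, the TATA match at -25 to -20 and the SMAD match at 4 to 8, counted from 1 at the first transcribed base with -1 before it. In Thbs2 the SMAD matches lay at -66 to -62 and -43 to -39, and the TATA match, on the opposite strand, at -126 to -121. Matches to CAGAC were present in 6 of the 8 windows (5 of 6 genes) and in 49.6% of 32851 promoter windows of all genes. The TEAD letters matched 1 of 8 windows, and 14.7% of all. TATAAA matched 5 of 8 windows, and 13.6% of all. A pair of these windows, both of Tnc, overlap and share part of their sequence. No window of these genes held the SMAD palindrome GTCTAGAC (0.213% of all), the AP-1 motif TGANTCA (7.81% of all) or the SRF CArG box (1.63% of all). The motifs are short and do not overlap each other in the windows shown, and a match describes letters only.

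All 9 genes rose in both tumour groups. NGE was labelled normal epithelium and the tumours cancer tissue, so tumour and the kind of tissue sampled cannot be told apart in these comparisons. Levels in pChePS_GC were 7.49 to 25.8 times those in NGE and levels in pCP_GC 4.36 to 31.3 times (limma, adjusted p at most 0.000529 in pChePS_GC and 0.00309 in pCP_GC). Among all genes 18.7% were called higher in pChePS_GC and 20.0% in pCP_GC; at a rise of at least 2-fold these shares were 6.98% in pChePS_GC and 8.13% in pCP_GC. Shares called lower were 23.4% in pChePS_GC and 31.8% in pCP_GC. The median change of the 9 genes was 4.18 on the log2 scale in pChePS_GC and 4.18 in pCP_GC, beside medians over all genes of -0.10 in pChePS_GC and -0.12 in pCP_GC. In each comparison 7 of the 9 were among the 100 largest rises. None of the 9 overlapped between tumour and NGE arrays, which held for 17.7% of all genes in the higher direction for pChePS_GC and 24.0% for pCP_GC. The comparisons share the 4 NGE arrays and an estimate of spread, so their likeness is not independent evidence.

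**Figure D1:**
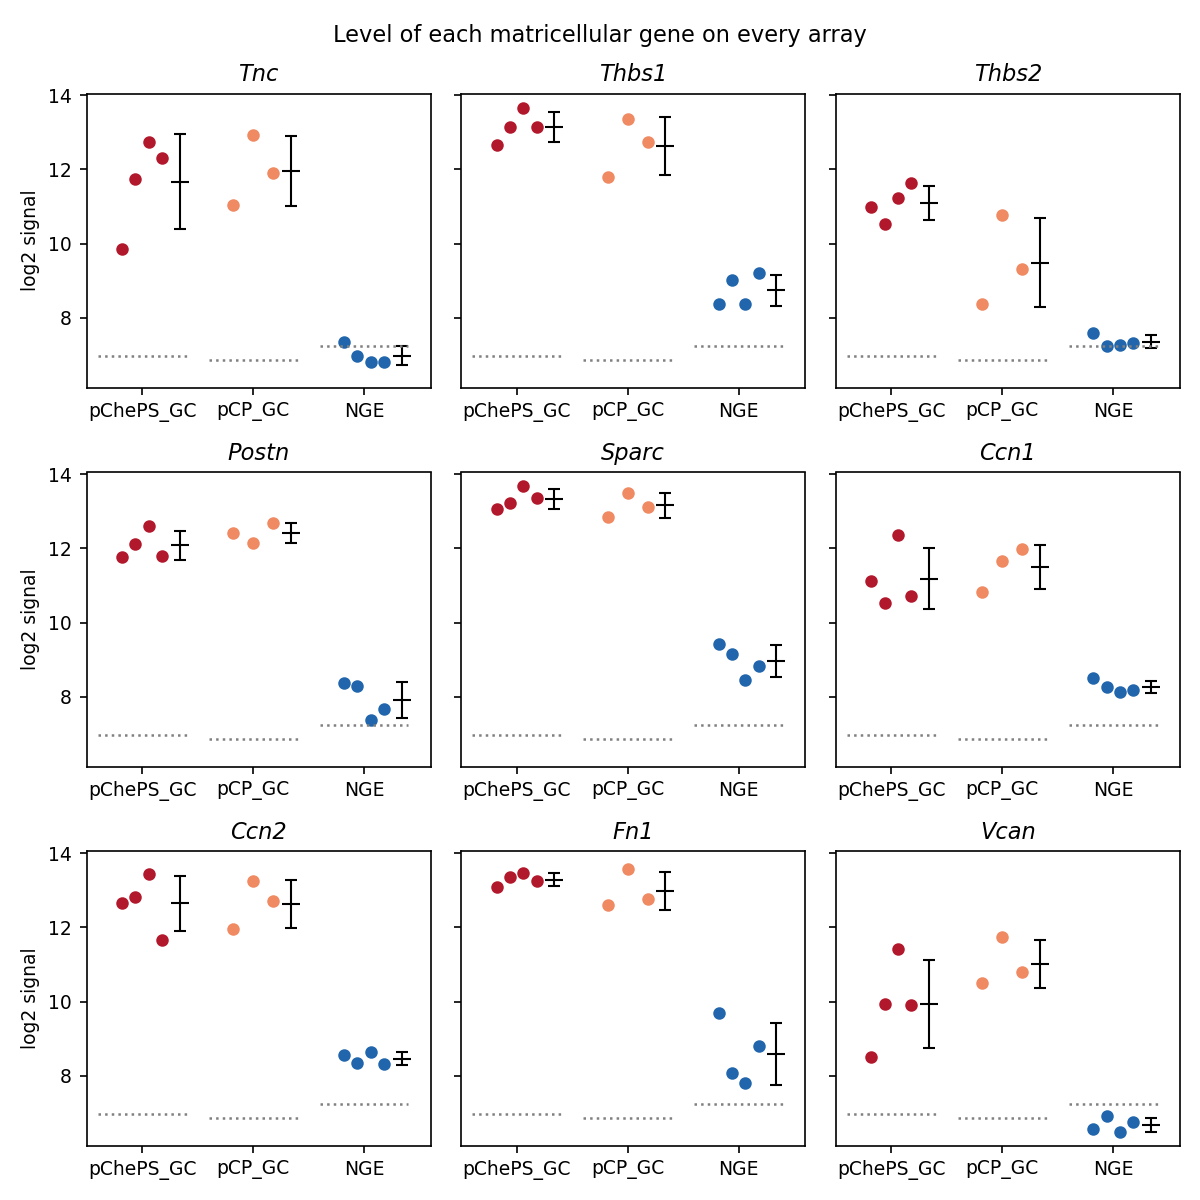
Log2 signal (vertical axis) of 9 matricellular genes on each array of pChePS_GC, pCP_GC and NGE. Points are arrays, the black mark and bar are the mean ± SD, and the dotted line is the 95th percentile of receptor genes in that group. Every tumour point lies above every NGE point of the same gene, and the NGE points of Vcan (6.49 to 6.93) lie under the dotted line.

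Tnc encodes tenascin-C, a large glycoprotein that appears in wounds and tumours and weakens cell adhesion to fibronectin. It read 9.86, 11.74, 12.75 and 12.32 in pChePS_GC, 11.04, 12.91 and 11.91 in pCP_GC, and 7.36, 6.97, 6.80 and 6.82 in NGE. The tumour values were spread over 3.05 log2 units, with the lowest on pChePS_GC replicate 1, which still lay 2.50 above the highest NGE array. Tnc rose by 4.68 in pChePS_GC (SE 0.56, limma adjusted p = 0.000123) and by 4.97 in pCP_GC (SE 0.61, limma adjusted p = 0.000161), the 6th largest rise of all genes there. Without pChePS_GC replicate 1 the rise in pChePS_GC was 5.28 (limma adjusted p = 9.41e-06). On 3 of 4 NGE arrays it lay under the receptor percentile, so where that level is background the rise is a lower bound.

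Thbs1 and Thbs2 encode thrombospondins, trimeric proteins that inhibit angiogenesis. Thrombospondin 1 also activates latent TGF-beta, and platelets store it. Thbs1 read 12.67, 13.15, 13.65 and 13.14 in pChePS_GC, 11.81, 13.35 and 12.75 in pCP_GC, and 8.37, 9.01, 8.38 and 9.20 in NGE. The tumour groups overlapped, and both lay clear of NGE. Thbs1 rose by 4.41 in pChePS_GC (SE 0.33, limma adjusted p = 4.97e-06) and by 3.89 in pCP_GC (SE 0.35, limma adjusted p = 2.33e-05).

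Thbs2 read 10.98, 10.54, 11.24 and 11.62 in pChePS_GC, 8.38, 10.78 and 9.31 in pCP_GC, and 7.61, 7.26, 7.27 and 7.33 in NGE. A single pCP_GC array, replicate 2, reached the range of pChePS_GC, and the other pCP_GC arrays lay between that range and NGE. Thbs2 rose by 3.73 in pChePS_GC (SE 0.41, limma adjusted p = 6.86e-05) and by 2.12 in pCP_GC (SE 0.45, limma adjusted p = 0.00309), the smallest rise of the 9 genes in that group. Without pCP_GC replicate 2 the rise in pCP_GC was 1.48 (adjusted p = 0.00500). The difference between tumour groups was 1.61 (95% interval 0.62 to 2.59), with an unadjusted limma p of 0.00427 and an adjusted p of 0.150. An exact two-sided permutation test over 35 arrangements gave p = 0.0571, where 0.0286 is the smallest possible. Without pCP_GC replicate 2 the difference was 2.25 with a limma adjusted p of 0.0110, and with array weights it was 2.07 (adjusted p = 0.0427), in a range over all 23 alternatives of 0.0110 to 0.347.

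Set against each other within each array, Thbs1 minus Thbs2 averaged 2.06 ± 0.54 in pChePS_GC (SD, n = 4), 3.14 ± 0.50 in pCP_GC (SD, n = 3) and 1.38 ± 0.53 in NGE (SD, n = 4). Thbs1 therefore changed by 1.77 more than Thbs2 in pCP_GC against NGE (exact two-sided permutation p = 0.0286, the smallest possible, adjusted p = 0.0571 over 6 such tests). The unequal change was 0.68 in pChePS_GC against NGE (exact p = 0.171, adjusted p = 0.206) and -1.09 between the tumour groups (exact p = 0.0857, adjusted p = 0.129). None of these passed after adjustment.

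Ccn1 and Ccn2 encode cysteine-rich secreted proteins that bind integrins, were earlier named CYR61 and CTGF, and are standard readouts of YAP; Ccn2 is also a classic TGF-beta target of fibrosis. Ccn1 read 11.13, 10.52, 12.35 and 10.71 in pChePS_GC, 10.83, 11.66 and 11.98 in pCP_GC, and 8.50, 8.27, 8.14 and 8.18 in NGE. Its rise of 2.90 in pChePS_GC (SE 0.37, limma adjusted p = 0.000167) was the smallest of the 9 genes there, and it rose by 3.22 in pCP_GC (SE 0.40, limma adjusted p = 0.000164). Ccn2 read 12.65, 12.83, 13.44 and 11.66 in pChePS_GC, 11.95, 13.24 and 12.71 in pCP_GC, and 8.57, 8.34, 8.65 and 8.31 in NGE. Ccn2 rose by 4.18 in pChePS_GC (SE 0.35, limma adjusted p = 1.05e-05) and by 4.16 in pCP_GC (SE 0.38, limma adjusted p = 2.27e-05). In both genes pChePS_GC replicate 3 was the highest tumour array.

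Within arrays, Ccn2 minus Ccn1 averaged 1.47 ± 0.61 in pChePS_GC (SD, n = 4), 1.14 ± 0.43 in pCP_GC (SD, n = 3) and 0.19 ± 0.21 in NGE (SD, n = 4). Ccn2 changed by 1.27 more than Ccn1 in pChePS_GC and by 0.95 more in pCP_GC. For each of these differences the groups gave the smallest exact two-sided permutation p possible, 0.0286, which became 0.0571 after adjustment and did not pass. Between the tumour groups the same quantity differed by 0.33 (exact p = 0.514).

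Postn encodes periostin, a collagen-binding protein of fibroblasts that assists collagen cross-linking, and Sparc encodes osteonectin, which binds collagen and calcium. Postn read 11.78, 12.13, 12.61 and 11.80 in pChePS_GC, 12.40, 12.14 and 12.69 in pCP_GC, and 8.37, 8.30, 7.38 and 7.66 in NGE. Sparc read 13.05, 13.22, 13.68 and 13.36 in pChePS_GC, 12.84, 13.50 and 13.13 in pCP_GC, and 9.44, 9.16, 8.45 and 8.85 in NGE. Their tumour arrays lay close together, within 0.91 for Postn and 0.84 for Sparc. Postn rose by 4.15 (SE 0.25, limma adjusted p = 1.49e-06) in pChePS_GC and by 4.49 (SE 0.27, limma adjusted p = 2.25e-06) in pCP_GC. Sparc rose by 4.36 (SE 0.22, limma adjusted p = 4.09e-07) in pChePS_GC and by 4.18 (SE 0.24, limma adjusted p = 1.36e-06) in pCP_GC. Sparc had the smallest standard error of the 9 genes in these comparisons, and differed between the tumour groups by 0.17 (95% interval -0.35 to 0.70).

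Fn1 encodes fibronectin, the fibrillar glycoprotein to which integrins and many of these proteins bind, and Vcan encodes versican, a large proteoglycan that binds hyaluronan. Fn1 read 13.08, 13.36, 13.47 and 13.24 in pChePS_GC, 12.60, 13.56 and 12.77 in pCP_GC, and 9.69, 8.08, 7.80 and 8.80 in NGE. It was the least even of the 9 genes in NGE, with an SD of 0.84, and its lowest tumour value lay 2.91 above the highest NGE value. Fn1 rose by 4.69 in pChePS_GC (SE 0.36, limma adjusted p = 6.17e-06), the largest rise of the 9 there, and by 4.39 in pCP_GC (SE 0.39, limma adjusted p = 2.06e-05).

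Vcan read 8.52, 9.92, 11.41 and 9.91 in pChePS_GC, 10.50, 11.73 and 10.79 in pCP_GC, and 6.56, 6.93, 6.49 and 6.75 in NGE. All 4 NGE arrays lay under the receptor percentile, with the same limit as for Tnc, and pChePS_GC replicate 1 was the lowest tumour array. Vcan rose by 3.26 in pChePS_GC (SE 0.49, limma adjusted p = 0.000529) and by 4.33 in pCP_GC (SE 0.53, limma adjusted p = 0.000161). Between the tumour groups Vcan differed by -1.07 (95% interval -2.24 to 0.10, limma adjusted p = 0.337), and the groups overlapped.

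**Figure D2:**
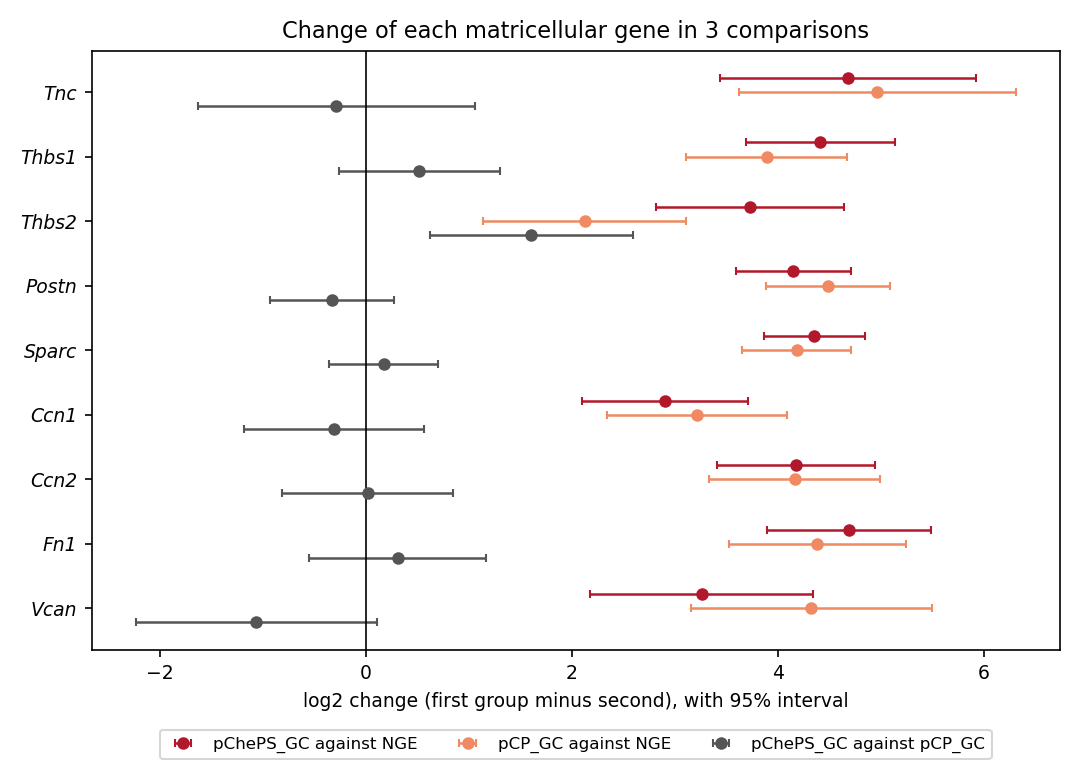
Log2 change (horizontal axis, first group minus second) of each gene with its 95% interval, for pChePS_GC against NGE, pCP_GC against NGE and pChePS_GC against pCP_GC. The changes against NGE lie between 2.12 and 4.97, and Thbs2 is the gene whose interval between the tumour groups (0.62 to 2.59) leaves out 0.

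The comparison of pChePS_GC with pCP_GC sets tumours of Smad4F/F and Cdh1F/+ mice against tumours of Cdh1F/F mice with no floxed Smad4 named, both with Trp53F/F. Whether the wild-type Cdh1 allele remained in the pChePS_GC tumours was not tested, and Cdh1 averaged 9.60 in pChePS_GC and 11.20 in pCP_GC. By limma 0 of the 9 genes passed, and 1, Thbs2, had an unadjusted p under 0.05. By the exact permutation test 0 of 9 had a p under 0.05. Of all genes 0.366% were called in either direction. The tumour groups overlapped for each of the 9 genes. Overlap was the usual case, as 13.9% of all genes did not overlap in either direction, so this does not set the 9 genes apart. The differences ran from -1.07 (Vcan) to 1.61 (Thbs2). For Ccn2 the difference was 0.02 with an interval from -0.82 to 0.85, and for Tnc it was -0.29 with an interval from -1.63 to 1.05 (0.31 without pChePS_GC replicate 1, adjusted p = 0.703), so differences within those bounds were not resolved with these arrays.

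Within each tumour group most of the genes took their highest value on the same array, with a few exceptions. In pChePS_GC, replicate 3 held the highest value of 8 of the 9 genes and replicate 1 the lowest of 6. In pCP_GC, replicate 2 held the highest value of 7 genes and replicate 1 the lowest of 8. Thbs2 was highest on pChePS_GC replicate 4 and Postn on pCP_GC replicate 3. As a measure of likeness, the root mean square difference over 11 arrays was taken after each gene was centred on its own mean. By it Sparc was the nearest of the 9 to 5 of the others, at 0.33 for Postn and 0.37 for Fn1. Thbs2 was the least like the rest, with its nearest member, Thbs1, at 0.83.

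Among all genes, the 3 nearest to Sparc were Srgn, which encodes the proteoglycan serglycin (0.17), Igfbp7 (0.17) and Emcn, a mucin-like protein of endothelium (0.21). Postn lay nearest to Igfbp7 (0.26), Rgs5, known from pericytes (0.30), and Sparc (0.33). Thbs1 lay nearest to Lox, a collagen cross-linking enzyme (0.31), Pla2g7 (0.32) and Mmp2, a gelatinase (0.33). Fn1 lay nearest to Sparc (0.37), Bgn, the proteoglycan biglycan (0.39), and Srgn (0.39). Ccn1 lay nearest to Pdpn (0.33), Calcrl (0.36) and Cd302 (0.36), and Ccn2 to Sulf1 (0.29), Igfbp4 (0.31) and Spon1 (0.34). Vcan lay nearest to the secreted Wnt inhibitor Sfrp1 (0.35), then Srpx2 (0.42) and Igfbp5 (0.44). The nearest genes to Tnc were Wfdc17 (0.54), Sfrp1 (0.55) and Mmp2 (0.56), and those to Thbs2 were Adamts12 (0.48), the microfibril protein Mfap5 (0.49) and Fbln2 (0.51), farther away than for the other genes.

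Markers of stromal cells moved in the same direction as the 9 genes. Of 10 fibroblast markers 9 rose in each tumour group, among them Lum (4.99 in pChePS_GC and 4.49 in pCP_GC) and Dcn (4.56 in pChePS_GC and 5.14 in pCP_GC). Their mean log2 level was 10.01 to 11.15 in pChePS_GC, 10.29 to 11.46 in pCP_GC, with Fap under the receptor percentile, and 7.60 to 7.74 in NGE, where Lum and Fap lay under the receptor percentile. All 7 endothelium markers rose in both groups, with a mean level of 9.54 to 10.59 in pChePS_GC, of 9.44 to 9.96 in pCP_GC and of 7.16 to 7.32 in NGE. The Vwf call in pCP_GC held under 13 of 23 alternatives (limma adjusted p up to 0.0766). All 8 macrophage markers rose in both groups, with a mean level of 10.43 to 11.16 in pChePS_GC, of 10.11 to 11.42 in pCP_GC and of 7.36 to 7.59 in NGE. In NGE, Cdh5, Emcn, Kdr and Tek of the endothelium and Adgre1 and Mrc1 of macrophages lay under the receptor percentile.

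Of 7 smooth muscle markers 5 rose in each group, Acta2 by 4.04 in pChePS_GC and 4.30 in pCP_GC. Their mean was 8.63 on pChePS_GC replicate 1 and 9.78 to 11.65 on the other pChePS_GC arrays, 10.10 to 11.13 in pCP_GC and, in NGE, 7.71 to 7.80. The array with the lowest smooth muscle mean among the tumours was thus also the lowest in Tnc, Vcan and Postn. That array also had the lowest tumour mean of the fibroblast (10.01), platelet (8.10) and pit cell (10.40) marker lists. It did not have the lowest of the endothelium, macrophage, mesothelium, epithelium or parietal cell lists. Of 4 measured platelet and megakaryocyte markers 2 rose, Ppbp by 2.72 in pChePS_GC and 3.74 in pCP_GC and Pf4 by 1.57 in pChePS_GC and 1.59 in pCP_GC, and the Pf4 call held under 18 of 23 alternatives in pChePS_GC and 19 of 23 in pCP_GC. The platelet list mean was 8.10 to 9.48 in pChePS_GC, 8.56 to 9.72 in pCP_GC and, in NGE, 7.56 to 7.79. Of 4 mesothelium markers Msln rose (4.80 in pChePS_GC and 4.54 in pCP_GC) and Wt1 fell in pCP_GC (-0.39), a call lost without pCP_GC replicate 1 or 3 (adjusted p up to 0.0652). The mesothelium list mean was 8.62 to 9.48 in pChePS_GC, 8.36 to 8.81 in pCP_GC and 7.39 to 7.77 in NGE. Msln was the only gene of this list called higher, and Upk3b and Lrrn4 passed in neither tumour group.

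Epithelial lists differed among themselves. Of 5 genes listed for parietal cells (Atp4a, Atp4b, Kcne2, Slc26a9 and Cblif, the last a chief cell gene in mouse) 5 fell in each tumour group, with a mean of 8.31 to 9.03 in pChePS_GC, of 8.08 to 10.43 in pCP_GC and of 12.79 to 13.05 in NGE. The highest of the pCP_GC values was that of replicate 2, the array with the highest Tnc, Fn1 and Vcan of that group. Of 5 pit cell markers 4 fell in pChePS_GC and 0 passed in pCP_GC, with a mean of 10.40 to 13.16 in pChePS_GC, of 13.16 to 13.57 in pCP_GC and of 14.09 to 14.14 in NGE. Of 6 general epithelial markers 2 rose (Epcam and Krt18) and 2 fell (Cdh1 and Cldn18) in pChePS_GC, and 1 rose (Epcam) and 1 fell (Cdh1) in pCP_GC. The Krt18 call was lost with centring on named genes (adjusted p = 0.106) and that of Cdh1 in pCP_GC without pCP_GC replicate 3 (adjusted p = 0.0585). The list had a mean of 12.47 to 12.92 in pChePS_GC, of 12.68 to 13.21 in pCP_GC and of 13.14 to 13.20 in NGE. In these bulk samples fewer cells of a type and less RNA per cell cannot be told apart, and the part of each marker list in the changes of the 9 genes was not tested. A difference in the region of stomach sampled, or in the share of stroma taken with epithelium and with cancer tissue, was not tested.

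**Figure D3:**
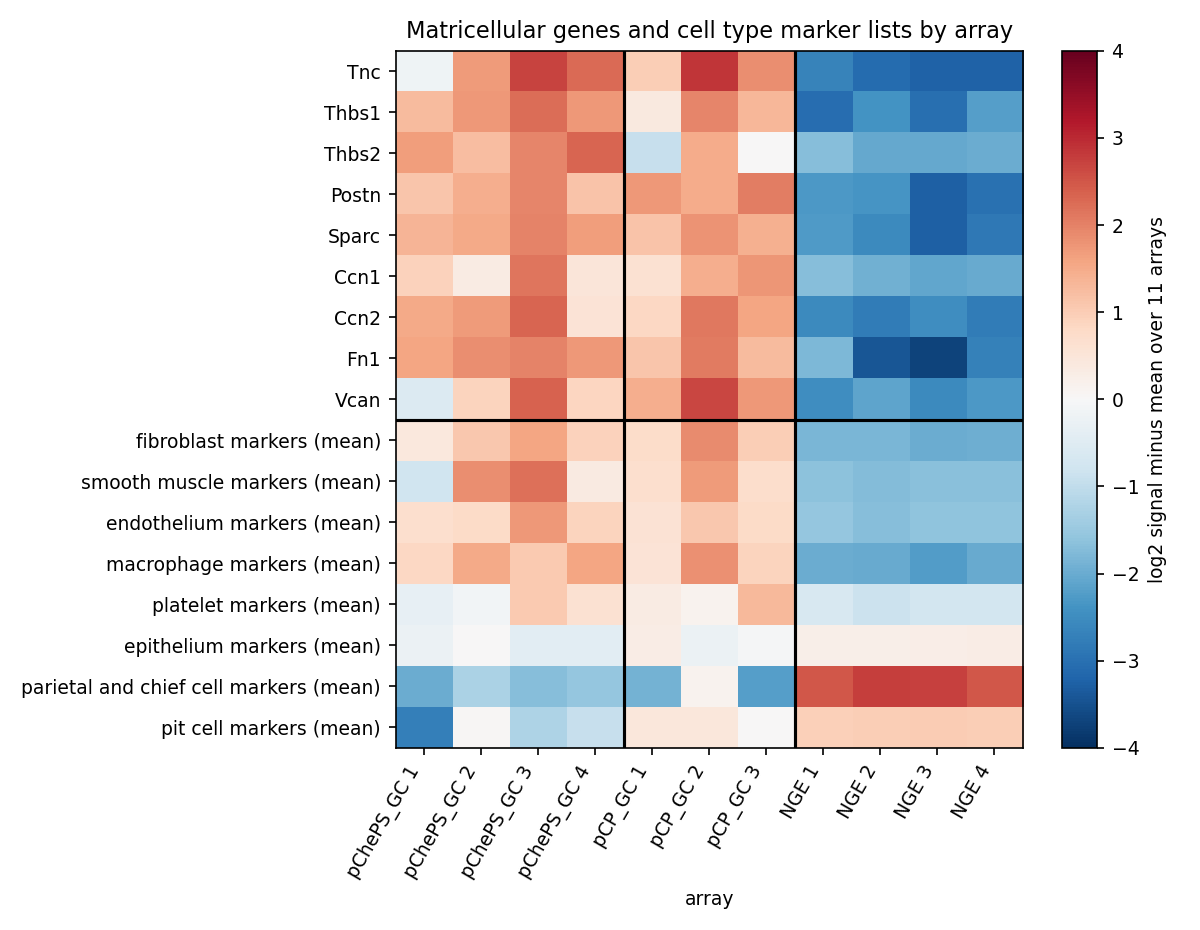
Log2 signal minus its mean over 11 arrays (colour), for the 9 genes and for the mean of each marker list (rows), on each array of pChePS_GC, pCP_GC and NGE (columns, numbered by replicate). The 9 genes and the fibroblast, endothelium and macrophage means are above their own averages on most tumour arrays and below them on all NGE arrays, and Tnc and Vcan lie lowest among tumours on pChePS_GC replicate 1.

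Each gene was also given relative to the fibroblast marker mean of the same array, a measure added after the values were seen and not tested. Of the 10 markers in that mean, Dpt differed by -2.81 between pChePS_GC and pCP_GC (limma adjusted p = 0.136). The others differed by -0.71 to 0.61, and none passed. Dpt thus lowered the marker mean in pChePS_GC relative to pCP_GC. It raised every difference, pChePS_GC minus pCP_GC, on this measure by the same amount. A mean without Dpt was not computed, so how much of each difference below rests on that marker is not given. Thbs2 relative to the fibroblast marker mean was -0.11 to 1.12 in pChePS_GC, -1.91 to -0.68 in pCP_GC and -0.48 to -0.14 in NGE. On this measure the pCP_GC arrays lay below both other groups, and pCP_GC minus NGE was -0.97 although the level of Thbs2 itself had risen. In NGE, however, Thbs2 (7.26 to 7.61) and the fibroblast mean (7.60 to 7.74) both lay close to the receptor percentile of 7.24. The NGE values of this measure thus set dim signals against each other, and they do not show Thbs2 per fibroblast. On the relative measure 3 of 9 genes, Thbs1, Thbs2 and Fn1, were higher in pChePS_GC with no overlap. Fn1 was only just separated, with 2.32 as its lowest value in pChePS_GC and 2.31 as its highest in pCP_GC. Of all genes 0.973% were higher in pChePS_GC with no overlap on this measure. That share is not a like background for these genes. The fibroblast mean varied over the tumour arrays (10.01 to 11.46), and subtracting it adds the same scatter to every gene that does not follow it. On their levels alone all 9 genes overlapped between the tumour groups. The differences, pChePS_GC minus pCP_GC, were 1.79 for Thbs2, 0.71 for Thbs1 and 0.49 for Fn1. Ccn1 relative to the fibroblast mean was 0.60 in pChePS_GC, 0.72 in pCP_GC and 0.60 in NGE on average. Tnc on the same measure was 1.09 in pChePS_GC, 1.19 in pCP_GC and -0.68 in NGE. Tnc itself lay under the receptor percentile on 3 of 4 NGE arrays.

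**Figure D4:**
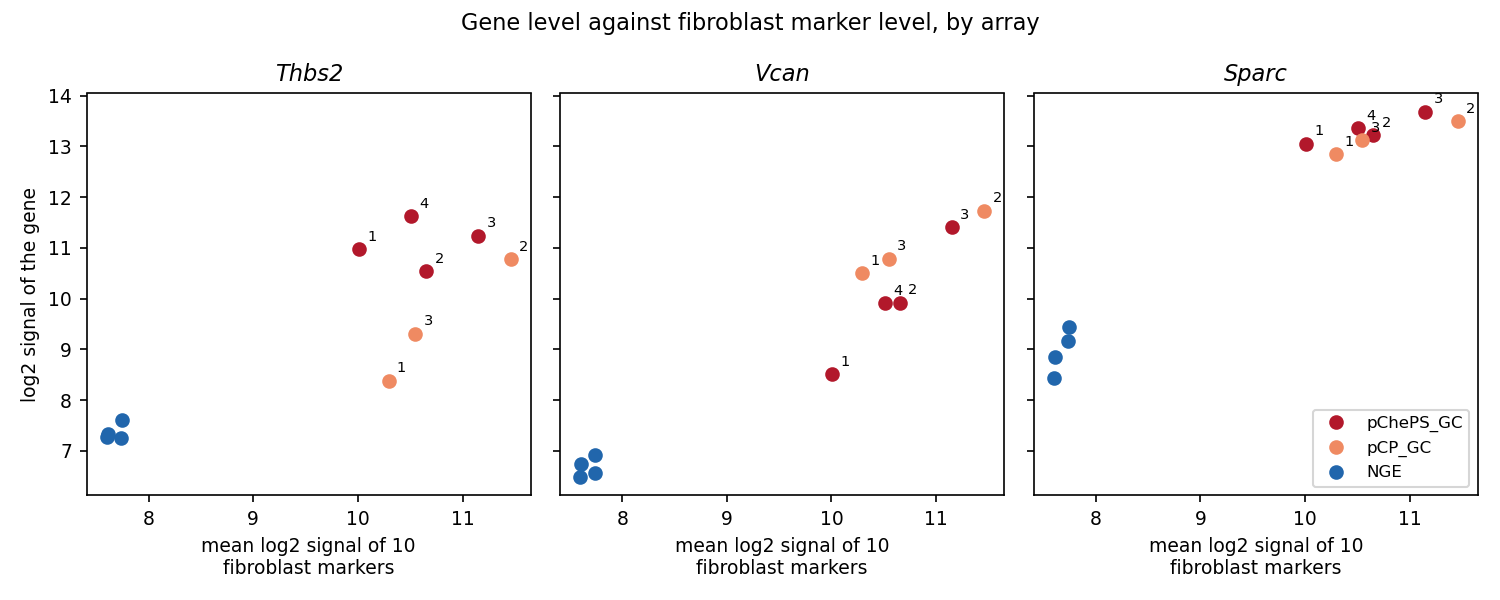
Log2 signal of Thbs2, Vcan and Sparc (vertical axis) against the mean log2 signal of 10 fibroblast markers (horizontal axis), 1 point per array, with tumour replicates numbered. At a like marker mean (10.29 and 10.55), pCP_GC replicates 1 and 3 lie lower in Thbs2 (8.38 and 9.31) than any pChePS_GC array. In Sparc pCP_GC replicate 1 (12.84) also lies lower than any pChePS_GC array (13.05 to 13.68), and replicate 3 (13.13) lies within their range.

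Other matricellular genes, from the same families or of like function, did not move as a block. Of 21 measured, 9 rose and 4 fell in pChePS_GC and 7 rose and 3 fell in pCP_GC, with median changes of 0.09 in pChePS_GC and 0.45 in pCP_GC. Some rises in pChePS_GC lost their call under alternatives. Thbs4 kept it under 17 of 23, Smoc2 under 15 of 23 and Ccn4 under 18 of the 22 that kept the gene. The largest rises were those of Sparcl1, a relative of Sparc (5.10 in pChePS_GC and 4.57 in pCP_GC), Efemp1, a fibulin (3.96 in pChePS_GC and 4.40 in pCP_GC), Tgfbi, a relative of periostin (3.09 in pChePS_GC and 3.47 in pCP_GC), and Fbln2, another fibulin (3.00 in pChePS_GC and 1.98 in pCP_GC). Spock3 rose by 2.74 in pCP_GC and differed by 0.09 in pChePS_GC (limma adjusted p = 0.914), and it lay under the receptor percentile in pChePS_GC and NGE. The tumour groups' difference in Spock3 did not pass (-2.65, limma adjusted p = 0.128). The genes that fell, named after their values were seen, were Tnr, Ccn6 and Spock1 in both groups and Ccn3 in pChePS_GC. Ccn3, Ccn6 and Spock1 lost the call in pChePS_GC under some alternatives, and Ccn6 also in pCP_GC, with quantile normalization and without pCP_GC replicate 2 (adjusted p up to 0.0726). The tenascin Tnr, known from the nervous system, fell by 0.70 in pChePS_GC and by 0.97 in pCP_GC, and lay under the receptor percentile in both tumour groups. Between the tumour groups 0 of 21 passed.

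Receptors for these proteins rose in most cases. Of 22 measured, 16 rose and 1 fell in each tumour group. Itga2, an integrin subunit for collagen, rose by 4.51 in pChePS_GC and 4.17 in pCP_GC. Cd44, a receptor of hyaluronan and osteopontin, rose by 4.18 in pChePS_GC and 4.70 in pCP_GC. Itga5, the fibronectin receptor subunit, rose by 3.30 in pChePS_GC and 2.70 in pCP_GC. Cd36, a receptor of thrombospondins that also takes up fatty acids, fell in both tumour groups, with a limma adjusted p of 0.00663 in pChePS_GC and 0.00578 in pCP_GC.

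Among hyaluronan synthases, link proteins and enzymes that cut or cross-link matrix proteins, 10 of 18 rose in each tumour group, while 2 fell in pChePS_GC and 3 in pCP_GC. The rise of Mmp3 in pCP_GC kept its call under 16 of the 22 alternatives that kept the gene. Mmp2 rose by 4.35 in pChePS_GC and 4.12 in pCP_GC, Mmp14, which activates it, by 3.58 in pChePS_GC and 3.11 in pCP_GC. Tgm2, a transglutaminase that cross-links fibronectin, rose by 3.38 in pChePS_GC and 3.04 in pCP_GC. Adamts1, which can cleave versican, rose by 2.25 in pChePS_GC and 2.23 in pCP_GC. Mmp7, matrilysin, an epithelial protease, rose by 4.79 in pChePS_GC, differed by 1.17 in pCP_GC (limma adjusted p = 0.0576) and was the gene of these lists that differed between the tumour groups, by 3.62 (SE 0.47, limma adjusted p = 0.0144). That call held under 20 of 23 alternatives (adjusted p 0.000503 to 0.214) and was lost under 3, among them the fit of only these groups and the fit without pCP_GC replicate 3.

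Of 18 TGF-beta and YAP regulators 12 rose and 3 fell in pChePS_GC, and 11 rose and 2 fell in pCP_GC. The rise of Srf in pChePS_GC kept its call under 16 of 23 alternatives. The ligands Tgfb3 (3.51 in pChePS_GC and 3.11 in pCP_GC) and Tgfb1 (2.33 in pChePS_GC and 2.05 in pCP_GC) rose, as did Wwtr1, which encodes the YAP relative TAZ (1.99 in pChePS_GC and 2.02 in pCP_GC). Tgfb3 lay under the receptor percentile in NGE. Smad7, an inhibitor induced by the pathway, fell by 1.07 in pChePS_GC and by 0.96 in pCP_GC. Smad4 fell by 0.60 in pChePS_GC and differed by 0.35 in pCP_GC (limma adjusted p = 0.114); these falling genes were named after their values were seen. Of 14 measured further targets of YAP or TGF-beta 10 rose and 1 fell in pChePS_GC, and 9 rose and 0 fell in pCP_GC. Axl, a receptor kinase (3.13 in pChePS_GC and 3.33 in pCP_GC), and F3, tissue factor (3.09 in pChePS_GC and 3.24 in pCP_GC), rose the most of them in both. Nt5e, an ectonucleotidase named after its values were seen, fell by 1.66 in pChePS_GC and differed by -0.76 in pCP_GC (limma adjusted p = 0.0612). The rise of Ankrd1 in pChePS_GC kept its call under 10 of the 22 alternatives that kept the gene. Amotl1 kept its call under 18 of 23 alternatives in pChePS_GC and 11 of 23 in pCP_GC. Between the tumour groups 0 of these 32 genes passed.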

How the data were processed

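The deposited values are 1 log2 signal per probe set and array, normalized by the authors; the log2 unit was read from their range (2.88 to 14.56). The submitters' processing notes name Affymetrix Expression Console. The sources used here give no algorithm, version or genome build for it, and background correction sets the level of dim probe sets. Of 35556 probe sets, 21789 had 1 gene symbol in the platform annotation, 1621 several and 12146 none. The brightest probe set per gene gave 19938 genes.

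Group means were estimated over the 11 arrays in 1 limma model (limma 3.58.1, R 4.3.3; two-sided, Benjamini-Hochberg over 19938 genes, calls at an adjusted p under 0.05). The procedure was tested on simulated data. Single values had exact permutation tests. Alternatives were scaling, filters on dim genes, probe set choice, array weights, the variance prior, a replicate block and each array left out. Members and lists were chosen with earlier results of these data known. The rule for named genes took every member and, for each member, the 3 genes nearest in level pattern. From each other list it took up to 4 genes with the largest absolute change among those that passed in a comparison. For brevity not all are named. Others, such as genes named for a small fall, a dim level or a call lost under alternatives, were chosen after their values were seen.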

Additional observations from a re-analysis of the deposited data

How the results depend on the processing

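The 9 genes kept their rise and their call against NGE under all 23 alternatives, with changes of 2.51 to 5.28 in pChePS_GC and 1.48 to 5.42 in pCP_GC and adjusted p at most 0.00261 in pChePS_GC and 0.0103 in pCP_GC. Between the tumour groups 205 of 207 values kept their side of the threshold. The exceptions were both of Thbs2, so that 1 gene was called with array weights, and leaving out single arrays gave 0 to 1. The differences between paralogs stayed on their side of the threshold. With so few arrangements of arrays those exact tests could hardly pass after adjustment, so this does not measure stability.

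Counts over all genes moved more, and causes were not tested. In pChePS_GC against NGE 3728 genes were higher, or 1392 at 2-fold or more. The 4658 lower genes became 3078 with median centring, 9101 with centring on named genes (chosen after seeing the data, with 2695 higher), 1877 without the dimmest 50%, 7199 over every probe set and 665 at 2-fold or more. In pCP_GC against NGE 3994 genes were higher, or 1621 at 2-fold or more. The 6343 lower genes became 9716 with centring on named genes (2686 higher), 4001 and 1672 without the dimmest 25% and 50%, 9764 over every probe set and 564 at 2-fold or more. Centring on named genes moved the median of all genes by -0.17 in pChePS_GC and -0.21 in pCP_GC against NGE.

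In pChePS_GC against pCP_GC 23 genes were higher and 50 lower. These counts became 13 and 18 without the dimmest 50%, 10 and 27 over every probe set, 54 and 134 with array weights, 15 and 27 at 2-fold or more, 0 and 0 with only these groups in limma, and 19 and 31 with centring on named genes. Leaving out single arrays gave 7 to 51 higher and 17 to 103 lower, the highest of each without pCP_GC replicate 2.

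Deviations of same-numbered arrays correlated at -0.155 to 0.156 over genes, above 0.1 in 2 of 10 pairs. Arrays of unlike number were not compared, so whether replicate numbers pair the arrays was not settled. With the replicate number as a block 9 of the 9 genes were called against NGE in each tumour group, and 0 and 0 of all genes between the tumour groups, where Thbs2 differed by 1.52 and Mmp7 lost its call.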
